A study of Saccharomyces cerevisiae with 50 samples.

Results

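In budding yeast (Saccharomyces cerevisiae) lacking YOX1, the late part of the second cell cycle after pheromone release was examined by setting the arrays of 115 and 120 min against the arrays of 90, 95 and 100 min. Arrays were assigned to the windows by their time labels, which takes in 10 of the 50 arrays of the series: 4 arrays from 2 time points at 115-120 min and 6 arrays from 3 time points at 90-100 min. In both windows the cells were yox1 mutants that had been blocked in G1 by alpha factor, a mating pheromone, and then released into the rich medium YEPD. Total RNA of each time point carried the dye Cy5. The shared reference in Cy3 was RNA from unsynchronised wild-type cells grown in YEPD, per the labels. Each time point was measured on 1 array in each of 2 array sets. The study's design text speaks of technical replicates, but whether both array sets come from 1 culture is not stated, and the titles of set 2 carry later dates. No wild-type course was analysed here, so the differences describe the mutant alone and its dependence on YOX1 was not measured. The time points of a window are neighbouring samples, and p-values measure their scatter, not the spread between cultures.

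The yeast cycle runs through waves of transcription. In late G1 the factors SBF (Swi4 with Swi6) and MBF (Mbp1 with Swi6) switch on genes of budding and of DNA replication, histone genes follow in S phase, and in G2 and M the factors Mcm1, Fkh2 and Ndd1 switch on the CLB2 cluster. At the end of mitosis Swi5 activates the SIC1 cluster, whose products help end mitosis and separate daughter cells, and Mcm1 drives genes with an early cell cycle box (ECB). Yox1 and its relative Yhp1 are homeodomain repressors that act with Mcm1 at ECB promoters.

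Values are log2 ratios to the reference, centred on the median of each array. The deposited values were read as log10 ratios of Cy5 over Cy3. Base and direction were inferred, from values that end at exactly -2 and 2 and from the pheromone-induced FUS1, which stood at 3.67 and 3.96 log2 units at 0 min. Differences are 115-120 min minus 90-100 min, so that a positive value is higher at 115-120 min, with the standard error (SE) of the limma fit over time points.

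The deleted gene was examined first. The YOX1 probe gave -1.12 and -1.07 at 115 and 120 min in set 1 and -0.65 and -0.94 in set 2, against a lowest value of -1.50, a median of -1.12 and a highest value of -0.34 on the 5 arrays of 90-100 min that measured it. It lay below the reference on all 9 arrays, with overlapping windows. The difference was 0.15 ± 0.17 (SE, limma adjusted p = 0.596). It was -0.09 when arrays were scaled to equal spread. Where the probe lies relative to the deleted part is not stated.

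Of 6031 genes measured at all 5 time points, 273 rose and 235 fell at 115-120 min relative to 90-100 min at a limma adjusted p under 0.05, which is 8.42% of the genes tested, 4.53% higher and 3.90% lower. The 12 lists of cell cycle genes hold 23 of the genes that rose and 59 of those that fell, beside 186 of all genes tested. The median change was 0.45 log2 units among the genes that rose and -0.51 among those that fell, and 18 and 11 of them changed more than 2-fold. Without the array centring the split was 223 higher and 311 lower. The counts rest on few time points: without 115 min 26 genes rose and 10 fell, without 120 min 2 and 1, in array set 1 alone 32 and 61, and none passed with a spread pooled over the windows from 65 to 120 min or in a test against a 1.5-fold change. When 90 min was left out 109 rose and 123 fell, and when 95 min was left out 88 and 82.

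A count that uses no fitted spread gave the same order of size. Of 5040 genes measured on all 10 arrays, 168 (3.33%) had every array of 115-120 min above every array of 90-100 min, and 192 (3.81%) had every array below. Of the genes that passed the test, 90 that rose and 116 that fell were separated in this way. An exact permutation test of 2 against 3 time points cannot give a two-sided p below 0.1. The direction was alike in both array sets for 271 of 272 risen and 232 of 233 fallen genes measured in both. These genes were called on the mean of both sets, so the selection itself favours a like direction. Over all genes tested the direction was alike for 4245 of 5971.

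The array sets did differ in scale, and not in scale alone. Arrays of the same time point in the 2 sets had a median correlation over genes of 0.70. Within a set the median was 0.89 for arrays of the same window and 0.79 for arrays of different windows. A fit with time point as a random block gave a consensus correlation of -0.49 between arrays of a time point. Arrays held 5907 to 6073 open reading frames at 115-120 min and 5819 to 6066 at 90-100 min. The standard deviation of the log2 ratios over genes was 0.494 to 0.534 at 115-120 min and 0.573 to 0.624 at 90-100 min in set 1, and 0.333 to 0.360 and 0.415 to 0.453 in set 2. Ratios were thus narrower at 115-120 min within each set. The part of this narrowing in single results was not tested beyond scaling the arrays to equal spread, under which 310 genes rose and 261 fell. The 120 min array of set 1 carries another date in its title than the other arrays of that set compared here, and with title date as a block 377 genes rose and 329 fell.

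**Figure D1:**
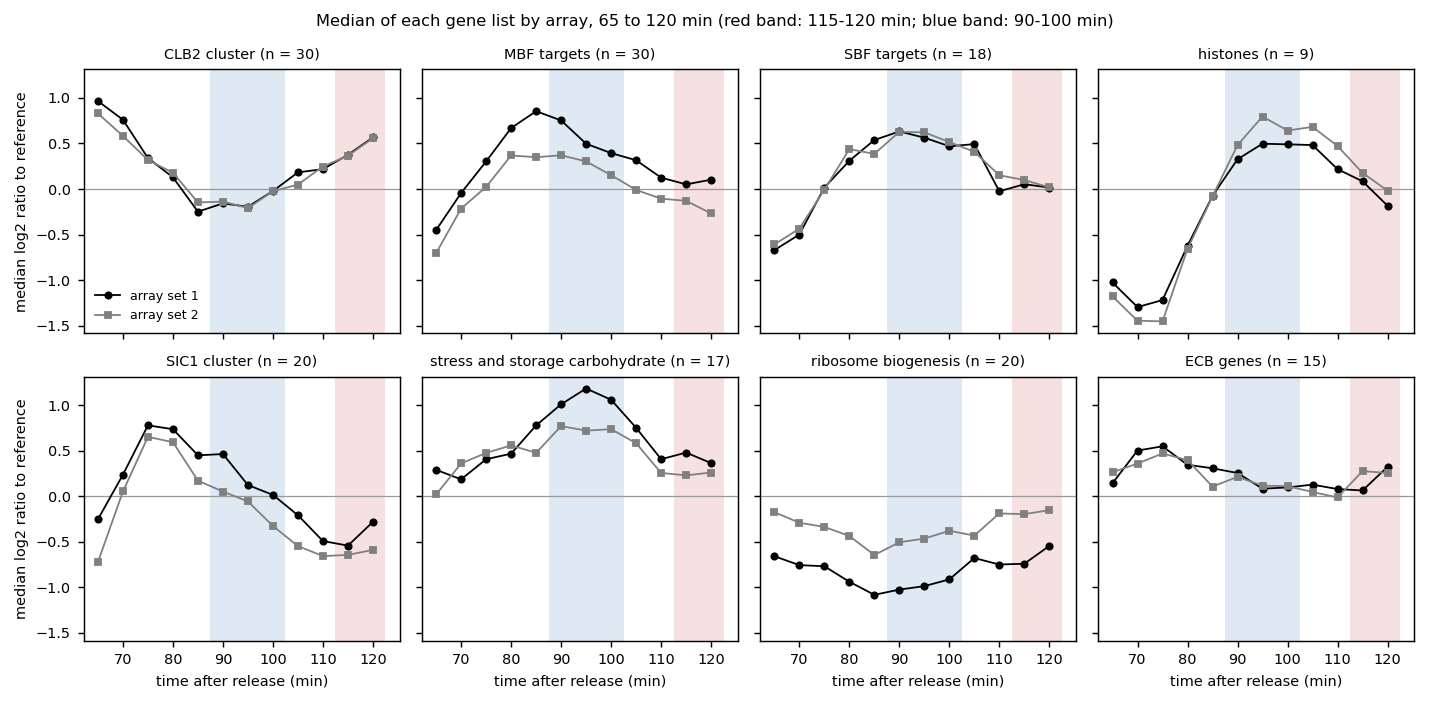
Median log2 ratio to the reference (vertical axis) of 8 gene lists on each array from 65 to 120 min (horizontal axis, time after release), with array set 1 in black circles, set 2 in grey squares, a red band over 115-120 min and a blue band over 90-100 min. The CLB2 cluster stands at 0.37 to 0.57 in the red band and at -0.21 to -0.02 in the blue band, while the MBF, SBF, histone, SIC1 and stress lists are lower in the red band.

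The naming of the windows as G2/M and G1/S was set beside the lists. Averaged over time points, the median CLB2 cluster member stood at 0.47 at 115-120 min and at -0.24 at 90-100 min. The median MBF target stood at -0.05 and 0.43, the median SBF target at 0.05 and 0.60, and the median histone gene at -0.01 and 0.52. Most late G1 and S phase lists thus returned to about the level of the asynchronous reference at 115-120 min, rather than far below it. By time point, the MBF median was 0.61 at 85 min and fell to 0.58, 0.44 and 0.32 at 90, 95 and 100 min. The earlier window thus spans the decline of the MBF list. The CLB2 cluster median was still rising, from 0.40 at 115 min to 0.56 at 120 min. It had stood at 0.96 in set 1 and 0.83 in set 2 at 65 min.

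Genes of the CLB2 cluster, which build the mitotic cyclins, the polo kinase and the bud neck machinery, rose together: 22 of 30 rose and none fell, against 4.53% and 3.90% of all genes. Their median difference was 0.62, beside 0.01 over all genes. CHS2, the chitin synthase that builds the primary septum, gave 0.90 and 1.36 at 115 and 120 min in set 1 and 0.80 and 1.08 in set 2, against -0.41, -0.24 and -0.16 as lowest, median and highest of the 6 arrays of 90-100 min. Its windows were far apart on every array. The difference of 1.31 ± 0.11 (SE, limma adjusted p = 0.0121), or 2.47-fold, was the largest among genes with complete and separated arrays. HOF1, an F-BAR protein of cytokinesis at the bud neck, gave 0.33, 0.36, 0.26 and 0.70 in the same order, against -1.05 to -0.43 with a median of -0.75. HOF1 therefore crossed the reference level on every array, with a difference of 1.16 ± 0.10 (SE, adjusted p = 0.0121).

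The mitotic regulators of the cluster followed. CLB2, the main mitotic B-type cyclin, gave 0.16 and 0.51 in set 1 and 0.33 and 0.49 in set 2 at 115 and 120 min, against -0.84, -0.49 and -0.18 as lowest, median and highest at 90-100 min. CLB1, its close relative, gave -0.24, -0.26, 0.20 and 0.38, against -1.29, -0.93 and -0.43. Both cyclins were higher on all 4 arrays of 115-120 min than on any of 90-100 min, by 0.88 ± 0.13 and 0.94 ± 0.11 (SE, adjusted p = 0.0170 and 0.0121). SWI5, the factor that later enters the nucleus and activates the SIC1 cluster, gave 0.15, 0.55, 0.72 and 0.82, against -0.78, -0.41 and 0.13. SWI5 rose by 0.96 ± 0.14 (SE, adjusted p = 0.0159) although its lowest later array lies only just above its highest earlier one. CDC5, the polo kinase, averaged 0.47 ± 0.19 at 115-120 min (SD, n = 2 time points) and -0.27 ± 0.19 at 90-100 min (SD, n = 3), a difference of 0.74 ± 0.13 (SE, adjusted p = 0.0236) without overlap.

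Among the other members, NCE102, a membrane protein of the plasma membrane domains called eisosomes, rose by 0.96, and MMR1, which carries mitochondria into the bud, by 0.90. ALK1, HST3 (a histone deacetylase), YNL058C, BUD4 (an axial budding landmark at the neck) and IRC8 rose by 0.73 to 0.86. The 8 members that did not pass ran from -0.32 for AIM44 to 0.64 for BUD3, and they include TEM1, the GTPase at the head of the mitotic exit network, at 0.03. On single arrays of 115-120 min the cluster median was 0.37 in both sets at 115 min, and 0.57 in set 1 and 0.56 in set 2 at 120 min.

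**Figure D2:**
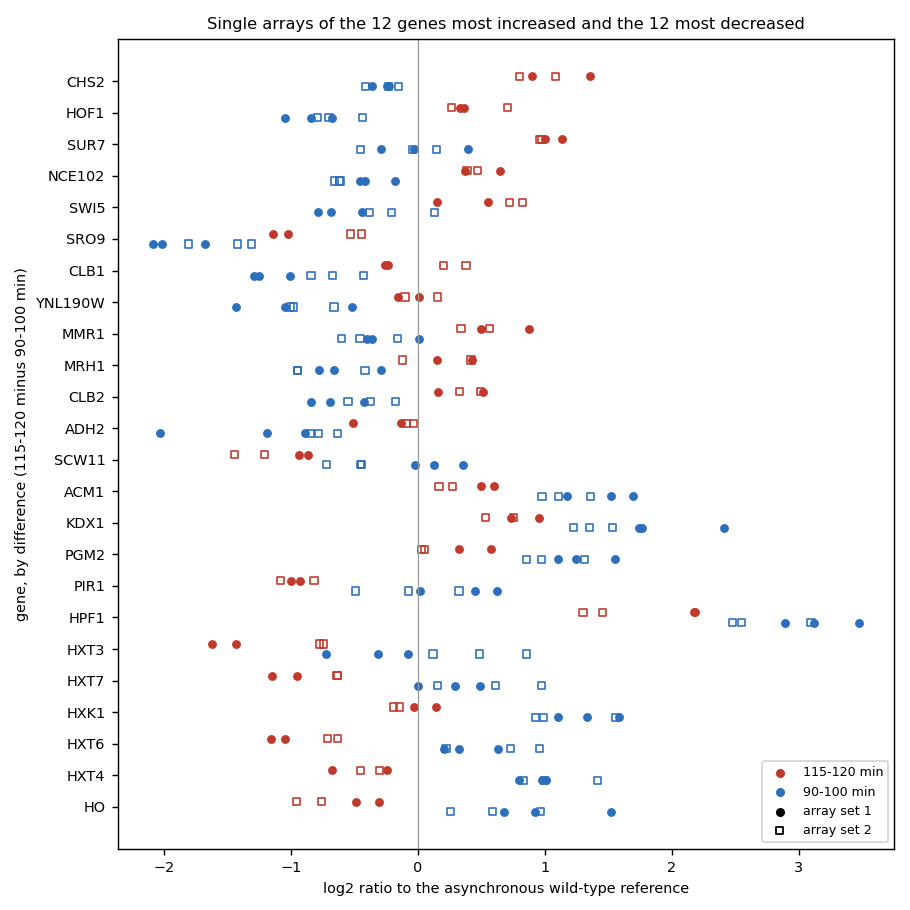
Log2 ratio to the reference (horizontal axis) on each of the 10 arrays for the 12 genes most increased and the 12 most decreased at 115-120 min among genes with separated arrays, ordered by their difference. Red marks 115-120 min, blue marks 90-100 min, filled circles are array set 1 and open squares set 2; in each row no red point lies among the blue ones, since the genes were chosen so.

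Late G1 genes of DNA replication went the other way. Of 30 MBF targets tested, 22 fell and none rose, against 3.90% and 4.53% of all genes. Their median difference was -0.54, and all 30 differences lay below 0, beside 2856 of 6031 over all genes. POL30, the sliding clamp of DNA polymerase, fell by 0.78 ± 0.14 (SE, adjusted p = 0.0255), with overlapping arrays, and set 1 ran above set 2 in both windows. RNR1, the large subunit of ribonucleotide reductase, gave 0.16 and 0.07 at 115 and 120 min in set 1 and -0.08 and -0.31 in set 2, against 0.43, 0.70 and 1.12 as lowest, median and highest on 5 arrays of 90-100 min. It was lower on every array of 115-120 min, by 0.77 in size (difference -0.77 ± 0.10, SE, adjusted p = 0.0154). CDC21, thymidylate synthase, gave 0.66, 0.73, 0.57 and 0.27, against 1.05, 1.18 and 1.51. CDC21 thus stayed above the reference in both windows while falling by 0.67. SPT21, which is needed for histone gene transcription, changed by -0.71, and MCD1, the cohesin subunit cleaved at anaphase, by -0.69.

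The MBF targets that did not pass were MSH6, RAD53, TOF1, DPB2, SMC1, ELG1, NRM1 and PRI1, between -0.48 and 0.00. NRM1, which represses MBF genes after G1, changed by -0.09 and PRI1, a primase subunit, by 0.00. CLB5 and SLD2 are on the array but lacked a value at one of the time points.

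SBF targets of budding and cell wall growth fell as well, 12 of 18 with none rising, against 3.90% and 4.53% of all genes. Their median difference was -0.47. HO, the endonuclease of mating type switching, gave -0.31 and -0.49 at 115 and 120 min in set 1 and -0.76 and -0.95 in set 2, against 0.26, 0.80 and 1.52 at 90-100 min. It went below the reference on all 4 later arrays, and its difference of -1.45 ± 0.20 (SE, adjusted p = 0.0155) was the largest decrease among genes with separated arrays. CLN2, a G1 cyclin of Start, gave 0.25, 0.08, 0.07 and -0.12, against 0.61, 0.79 and 1.05. PCL1, a cyclin of the kinase Pho85, gave 0.07, -0.25, 0.21 and 0.10, against 0.58, 0.81 and 1.16. Both cyclins had separated windows and fell by 0.72 and 0.83 (adjusted p = 0.0154 each). SVS1 and the mannosyltransferase MNN1 fell by 0.81 and 0.63. GAS1, FKS1 and KRE6, which act in cell wall glucan synthesis and remodelling, did not pass, at -0.28, -0.19 and 0.15.

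All 8 core histone genes fell, against 3.90% of all genes, and the linker histone HHO1 did not pass. HHF1, one of the histone H4 genes, gave 0.24 and 0.07 in set 1 and 0.24 and 0.06 in set 2 at 115 and 120 min, against 0.80, 0.93 and 1.16 at 90-100 min. HTA1, a histone H2A gene, gave 0.08, -0.27, 0.03 and -0.19, against 0.36, 0.48 and 0.70. Both were lower on every later array, by 0.80 and 0.59 in size (adjusted p = 0.0154 and 0.0241). HHO1 overlapped between the windows and changed by -0.11 ± 0.09 (SE, adjusted p = 0.459). Copies of a core histone are close in sequence, so that a probe may read both copies and their values are not separate evidence. Among single time points the histone median was highest at 95 min, at 0.65, and stood at -0.11 at 120 min.

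Cohesin, the ring that holds sister chromatids, shared the decline of the MBF targets with which it overlaps. Its members MCD1, SMC3, PDS5 and IRR1 fell by 0.51 to 0.69, and SMC1 (-0.37), SCC2 (-0.12), RAD61 (0.00) and SCC4 (0.03) did not pass. In deoxynucleotide synthesis RNR1, CDC21 and the damage-inducible RNR3 fell, while SML1, an inhibitor of ribonucleotide reductase, rose. SML1 gave 1.15, 1.23, 0.92 and 0.91 at 115-120 min, against -0.34, 0.30 and 0.77, a difference of 0.76 ± 0.17 (SE, adjusted p = 0.0376). RNR1 and SML1, an enzyme and its inhibitor, thus moved in opposite directions by about the same size. RNR2 and RNR4, the small subunit genes, did not pass, at 0.00 and 0.34.

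Spindle and forkhead genes of S and G2 moved little. Of 20 tested, ASE1, which bundles microtubules of the spindle midzone and is also in the CLB2 list, rose by 0.58 and SLK19, a spindle protein, fell by 0.45. The median difference was -0.05. Among all genes tested 4.53% rose and 3.90% fell, so the calls in this list were near the share over all genes. The forkhead genes FKH1 and FKH2 and their coactivator NDD1 stood at 0.18, 0.09 and -0.07 and did not pass.

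The SIC1 cluster of mitotic exit and daughter cells, which peaks earlier in the course, was still declining between the windows. Of its 20 genes 12 fell and none rose, against 3.90% and 4.53% of all genes, with a median difference of -0.65. PIR1, a cell wall protein, gave -1.09 to -0.82 on the 4 arrays of 115-120 min, against -0.49, 0.17 and 0.62 as lowest, median and highest at 90-100 min. SCW11, a glucanase of daughter cell separation, gave -0.87 and -0.94 at 115 and 120 min in set 1 and -1.21 and -1.45 in set 2, against -0.72, -0.24 and 0.35. Both ended well below the reference, by differences of -1.10 ± 0.19 and -0.92 ± 0.11 (SE, adjusted p = 0.0230 and 0.0121). RME1 and AMN1, 2 regulators of G1 and daughter cells, changed by -0.84 and -0.82, and the daughter-specific DSE1, DSE2 and DSE3 by -0.68, -0.69 and -0.76. DSE4 had the largest difference of the list, -1.50 ± 0.29 (SE, adjusted p = 0.0269), on 9 arrays that overlapped, and the difference within each set was -1.21 and -0.89. SIC1 itself, the inhibitor of B-type cyclin kinase, did not pass at -0.38, nor did ASH1 at -0.35 or the chitinase CTS1 at 0.10.

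Genes with ECB promoters, where Yox1 acts in the wild type, showed no call in either direction, beside 8.42% of all genes tested. Of 15 tested, differences ran from -0.32 for MCM5 to 0.25 for FAR1 with a median of 0.05, and the smallest adjusted p was 0.0591. At an unadjusted p under 0.05, 3 of the 15 passed in limma, beside 1718 of all 6031 genes tested. Neither count sets this list of 15 apart from all genes. The MCM helicase genes MCM2 to MCM7 lay between -0.32 and 0.14, the Start cyclin CLN3 at 0.23 and the SBF subunit SWI4 at -0.11. YHP1 gave 0.29, 0.51, 0.69 and 0.57 at 115-120 min, against 0.06, 0.26 and 0.67, a difference of 0.22 ± 0.08 (SE, adjusted p = 0.141). MCM1 changed by 0.11 (adjusted p = 0.417). Both overlapped between the windows.

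By role, the cyclins split. The mitotic cyclins CLB1 and CLB2 rose, the G1 cyclins CLN1 and CLN2 and the Pho85 cyclins PCL1 and PCL2 fell, and the S phase cyclin CLB6 fell by 0.39. CLB3 and CLB4, which act in spindle assembly, stood at -0.13 and -0.07 and did not pass, nor did PCL9 at -0.52 or CLN3. In the list of mitotic exit and the anaphase-promoting complex 4 of 27 genes rose and 2 fell, beside 4.53% and 3.90% of all genes. CDC5, the kinase partner MOB1, the nucleolar regulator SPO12 and the activator CDC20 rose, by 0.58 to 0.74. ACM1, an inhibitor of the activator Cdh1, gave 0.60, 0.49, 0.27 and 0.17 at 115-120 min, against 0.98, 1.26 and 1.69. It fell by 0.92 (adjusted p = 0.0155) and PDS1, the securin, by 0.36, with separated arrays in both. CDC20 and PDS1 were singled out after their values were seen. Among structural subunits of the complex that did not pass, CDC16, CDC23 and CDC27 lay between -0.04 and 0.13, while APC1 stood at 0.33, APC11 at 0.20 and CDC26 at -0.40.

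In cytokinesis and septation the risen genes were the CLB2 cluster members CHS2, HOF1, BUD4 and IQG1. The other 13 genes did not pass; the septins CDC3, CDC10, CDC11, CDC12 and SHS1 lay between -0.01 and 0.10. The lists share members, so these counts are not independent of those of the CLB2 cluster.

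**Figure D3:**
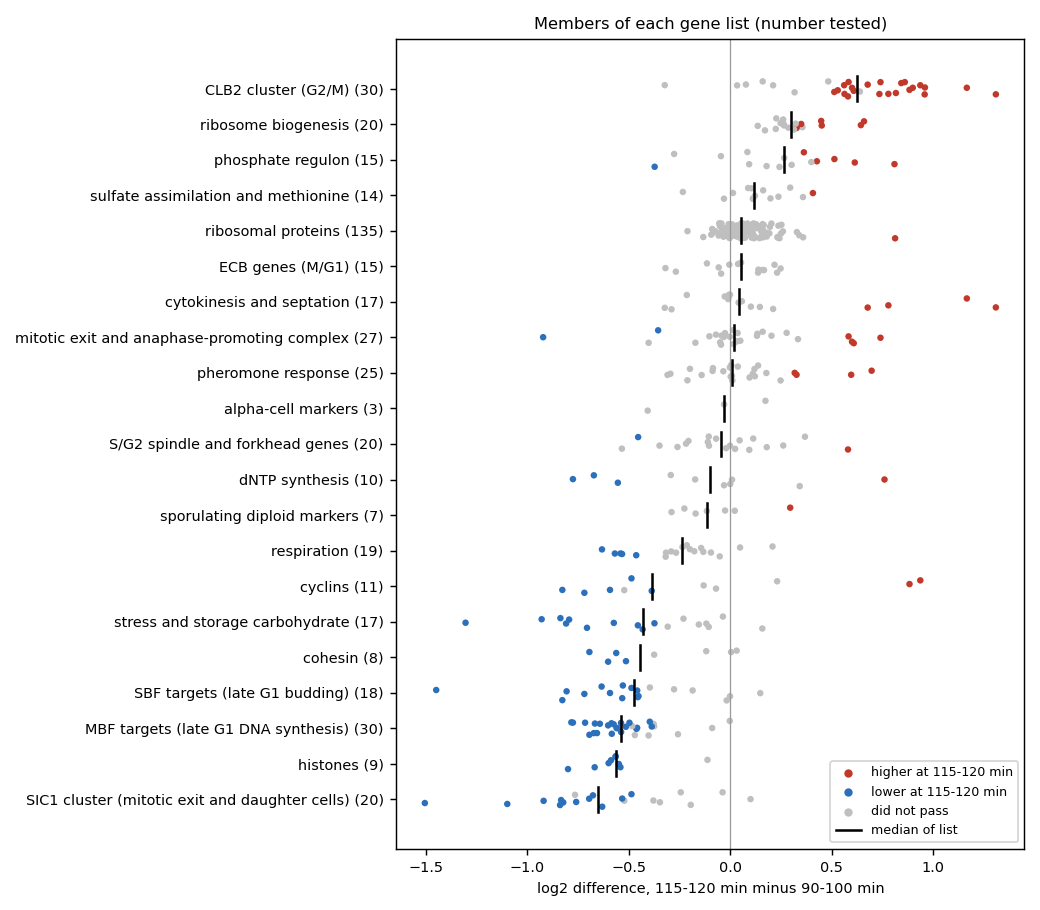
Log2 difference of each tested member (horizontal axis, 115-120 min minus 90-100 min) for 21 gene lists, with red points higher, blue points lower, grey points not past the threshold and a black bar at the list's median. The CLB2 cluster lies furthest to the right with a median of 0.62, and the SIC1 cluster furthest to the left with a median of -0.65.

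Several of the largest changes lay outside these lists. SUR7, a membrane protein of eisosomes, gave 1.00 and 1.14 at 115 and 120 min in set 1 and 0.97 and 0.96 in set 2, against -0.45, -0.04 and 0.40 at 90-100 min. Its later arrays agreed closely and lay above the earlier ones, with a difference of 1.06 ± 0.17 (SE, adjusted p = 0.0192). SRO9, an RNA-binding protein, gave -1.14, -1.02, -0.44 and -0.53, against -2.08, -1.74 and -1.31. SRO9 stayed below the reference in both windows while rising by 0.94. YNL190W, the membrane protein MRH1 and the glucose-repressed alcohol dehydrogenase ADH2 rose by 0.92, 0.89 and 0.87. ADH2 was at -1.48 at 110 min and -1.06 at 105 min, at or below its mean of 90-100 min, so its increase was seen at 115 and 120 min and not at 105 or 110 min.

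Hexose transporters gave 4 of the 12 largest decreases. HXT4 gave -0.24 and -0.68 at 115 and 120 min in set 1 and -0.30 and -0.45 in set 2, against 0.80, 0.99 and 1.41 at 90-100 min. HXT3, a low-affinity transporter, gave -1.43, -1.63, -0.77 and -0.75, against -0.73, 0.02 and 0.86. Both had separated arrays and changed by -1.42 ± 0.13 and -1.20 ± 0.18 (SE, adjusted p = 0.0121 and 0.0170). HXT6 and HXT7, which are near-identical copies that one probe may read together, changed by -1.40 and -1.26. The first step of hexose use followed: HXK1, a hexokinase, gave 0.14, -0.03, -0.19 and -0.15, against 0.92, 1.22 and 1.58. HXK1 thus returned to the reference level, a difference of -1.30 ± 0.15 (SE, adjusted p = 0.0121). HPF1, a cell wall mannoprotein, stayed high in both windows, at 1.30 to 2.18 against 2.48 to 3.47, and changed by -1.16. KDX1, a relative of cell wall integrity kinases, changed by -0.93.

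HXK1 is also a member of the list of stress and storage carbohydrate, so that its fall is counted there too. Of 17 genes of stress and storage carbohydrate, 10 fell and none rose, against 3.90% and 4.53% of all genes. The median was -0.43, and the 10 hold enzymes of glucose phosphorylation, glycogen, trehalose and glycerol besides the catalase CTT1. PGM2, phosphoglucomutase, gave 0.57, 0.32, 0.03 and 0.05, against 0.85, 1.17 and 1.55. TSL1, a subunit of trehalose synthase, gave 0.87, 0.87, 0.43 and 0.30, against 1.01, 1.45 and 1.79. Both stayed at or above the reference and fell by 0.93 and 0.84 (adjusted p = 0.0157 and 0.0121). GSY1 and GSY2, the glycogen synthases, changed by -0.81 and -0.45 and GPH1, glycogen phosphorylase, by -0.71. The heat shock genes HSP12, HSP26, HSP42, HSP104, SSA3 and SSA4 did not pass, between -0.31 and 0.16, nor did TPS2, trehalose phosphatase, at -0.23.

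In respiration 5 of 19 genes fell and none rose, against 3.90% and 4.53% of all genes, with a median of -0.24. The 5 were CIT1, citrate synthase, at -0.63, SDH1, SDH2 and SDH4 of succinate dehydrogenase at -0.53, -0.57 and -0.46, and MDH1 at -0.54. SDH1 gave 0.51, 0.54, 0.19 and 0.13 at 115-120 min, against 0.65, 0.85 and 1.18, with separated arrays (adjusted p = 0.0154). The subunits of complexes III to V tested did not pass.

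Ribosome biogenesis genes rose in part, 7 of 20, against 4.53% of all genes. Their median difference was 0.30, and all 20 differences lay above 0, beside 3175 of 6031 over all genes. RPA190, the largest subunit of RNA polymerase I, gave -0.19 and -0.22 at 115 and 120 min in set 1 and -0.02 and -0.09 in set 2, against -0.73, -0.60 and -0.38 at 90-100 min. It came close to the reference on every later array, with a difference of 0.45 ± 0.07 (SE, adjusted p = 0.0192). RPA135, the second largest subunit, and NOP58, a core protein of box C/D snoRNPs, rose by 0.64 and 0.66. The median of the list differed between array sets, at -0.74 and -0.55 in set 1 and -0.20 and -0.15 in set 2 at 115 and 120 min, against -1.02 to -0.91 and -0.51 to -0.38 at 90-100 min. The sets thus agreed on the direction and not on the level. Without the 115 min array of set 1 the count was 13 of 20, and in set 1 alone it was 0. Of 135 ribosomal protein genes tested, RPP2A, an acidic protein of the ribosomal stalk, rose, by 0.81 ± 0.15 (SE, adjusted p = 0.0249). The median of these genes was 0.05, and over all genes 4.53% rose.

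Phosphate genes split. PHO5, the repressible acid phosphatase, gave -0.77, -0.19, 0.03 and 0.29 at 115-120 min, against -1.37, -0.97 and -0.53, and rose by 0.81 ± 0.12 (SE, adjusted p = 0.0170) with overlapping arrays. PHM8, SPL2, VTC4 (the polyphosphate polymerase) and PHO81 (an inhibitor of the Pho85 kinase) rose by 0.36 to 0.61. PHO8, the vacuolar alkaline phosphatase, fell by 0.37. The 9 other members of 15 did not pass, and the transporter PHO84 stood at 0.40. Of 14 genes of sulfate assimilation and methionine, the permease MUP1 rose, by 0.41, with a list median of 0.12. That count is near the 4.53% of all genes that rose.

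Markers of other cell types and states were followed for the identity of the samples. The 7 markers of a-cells had array medians of -1.02 to -0.70 at 115-120 min and -1.06 to -0.58 at 90-100 min, so their median stood below the wild-type reference in both windows. Ratios do not show whether a transcript is present. Of 25 pheromone response genes, AGA1, MFA1, PRM3 and SST2 rose and none fell, with a median of 0.01. Over all genes tested 4.53% rose and 3.90% fell. AGA1, an agglutinin subunit, gave 0.00 and -0.38 in set 1 and 0.06 and -0.12 in set 2 at 115 and 120 min, against -1.42, -0.71 and -0.26. The gene FUS1, a marker of pheromone arrest, changed by 0.09 and did not pass. Of the alpha-cell markers none of 3 passed, and of 7 markers of sporulating diploids IME1 did, at 0.29. With 8.42% of all genes passing, lists this short are not set apart by these counts.

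Most changes brought genes nearer to the level of the reference. Of the genes that rose, 168 of 273 lay below the reference in both windows and 79 crossed it. Of those that fell, 127 of 235 lay above it in both windows and 85 crossed it. The mean of 115-120 min was nearer to 0 than that of 90-100 min for 78.4% of risen and 72.8% of fallen genes, against 58.8% of all tested. The narrower spread of the later arrays, given above, moves with this result, and its part was not tested. The CLB2 cluster differed from this pattern, with a median further from the reference at 115-120 min (0.47) than at 90-100 min (-0.24).

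The samples between the windows placed the changes in time. At 105 and 110 min the median risen gene had covered 0.504 and 0.346 of the distance to its mean at 115-120 min, and the median fallen gene 0.357 and 0.729. The decreases were thus further along at 110 min than at 105 min, and the increases were not. Within the cell cycle lists the risen genes had medians of 0.21 and 0.05 at 105 min and 0.37 and 0.35 at 110 min in sets 1 and 2. Outside them the medians were -0.58 and -0.20 at 105 min and -0.65 and -0.25 at 110 min.

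**Figure D4:**
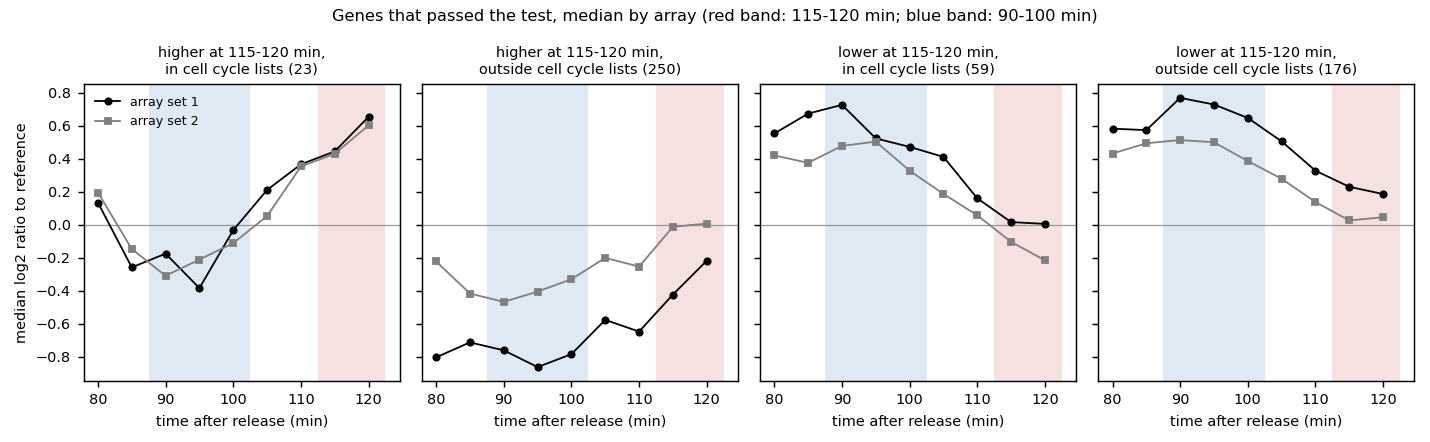
Median log2 ratio to the reference (vertical axis) on each array from 80 to 120 min (horizontal axis, time after release) of the genes that passed the test, split by direction and by membership in the cell cycle lists, with array set 1 in black circles, set 2 in grey squares, a red band over 115-120 min and a blue band over 90-100 min. The genes were chosen by these values, so the panels describe them; outside the cell cycle lists the risen genes run lower in set 1 than in set 2 at every time.

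Of the genes that passed, 23 that rose and 59 that fell are in the cell cycle lists, and 231 and 160 are in none of the 21 lists. The risen genes of the cell cycle lists had almost the same median in both sets, 0.44 and 0.43 at 115 min and 0.65 and 0.60 at 120 min. The 250 risen genes outside them had -0.42 in set 1 and -0.01 in set 2 at 115 min, and -0.22 and 0.01 at 120 min. Of the risen genes 36 lacked a value on at least 1 array, and there a time point can rest on 1 set. RSA4 shows the effect: its difference was 1.24 over time points, and its arrays of set 1 alone gave 0.73.

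The windows 70 min earlier, in the first cycle, were set beside those of the second. The shift of 70 min was set and not estimated here, and whether the windows match in phase was not tested. Over all 5 time points 45-50 min against 20-30 min gave 57 higher (0.971%) and 117 lower (1.99%) of 5873 genes. Of the genes that rose in the second cycle 35 of 271 tested also rose in the first, and of those that fell 60 of 234 also fell, with none called in the opposite direction. The 25 min arrays had a wider spread, with a standard deviation of 1.23 in set 1 and 1.12 in set 2. At 20 and 30 min it was 0.515 to 0.687. At 25 min 22 and 36 values lay at the limits, against 1 to 4 per array at 20 and 30 min. First-cycle values over all 5 time points rest in part on these arrays. Without 25 min the first cycle gave 587 higher (9.79%) and 718 lower (12.0%) of 5997 genes. The shared calls were then 145 of 272 and 162 of 235. MFA1, YGP1 and PSD1 then rose in the second cycle and fell in the first. With 25 min none of these 3 passed in the first cycle, and PSD1 stood at 0.25 there. MFA1, which encodes the a-factor pheromone, changed by 0.60 in the second cycle and by -1.82 in the first without 25 min.

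The median change of the CLB2 cluster was 0.62 in the second cycle, against 1.16 in the first over all 5 time points and 1.10 without 25 min. That of the MBF targets was -0.54 in the second cycle, against -1.24 in the first and -1.29 without 25 min. The median of the SIC1 cluster was further below 0 in the second cycle, at -0.65, against -0.28 in the first and -0.20 without 25 min. For histones the order depends on 25 min: the median was -0.56 in the second cycle, against -0.93 in the first and -0.41 without 25 min. CHS2 changed by 1.31 in the second cycle, against 2.60 in the first and 2.39 without 25 min. RNR1 changed by -0.77, against -1.46 and -2.11 without 25 min, and HO by -1.45, against -0.38 and -0.53 without 25 min. The test of the difference between cycles called no gene in limma, with 211 of 5873 genes at an unadjusted p under 0.05, and 788 of 5997 without 25 min at a smallest adjusted p of 0.0730. On simulated data with all 5 time points of the first cycle, this test recovered no changed gene. Its empty result there says nothing on whether the cycles differed. Without 25 min the test was not simulated, so what it could recover there is not known.

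**Figure D5:**
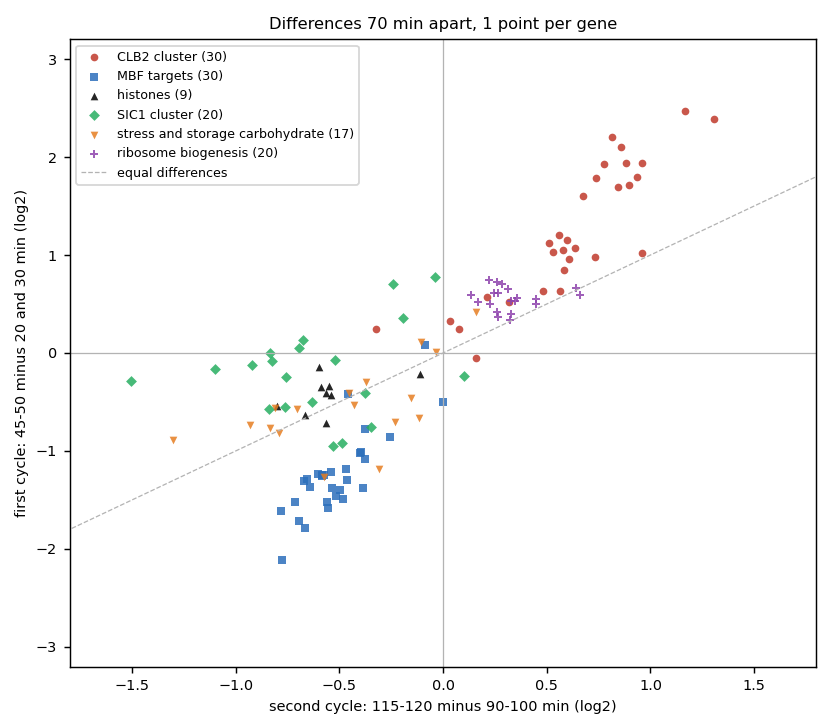
Difference of each gene in the second cycle (horizontal axis, 115-120 minus 90-100 min, log2) against the first (vertical axis, 45-50 minus 20 and 30 min, log2) for 6 gene lists, with a dashed line at equal differences. Most CLB2 cluster points lie above the line and most MBF points below it, with medians of 0.62 and 1.10, and of -0.54 and -1.29. The SIC1 cluster has medians of -0.65 and -0.20.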

How the data were processed

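The table deposited by the authors holds 1 value per open reading frame and array, read here as log10 ratios of Cy5 (time point) over Cy3 (asynchronous wild type); base and direction are not stated in the sources used here, nor are scanner, background correction, normalization and genome build. Of 6217 rows, 12 control rows were left out, and 5703 of 6205 open reading frames were matched by locus tag to symbols of assembly R64. Values at the limits of -2 and 2 were set to missing (8 at 115-120 min, 14 at 90-100 min). Ratios were converted to log2, centred on each array's median and averaged over the 2 arrays of each time point. The design text speaks of technical replicates, so the time point is the unit (residual degrees of freedom 3, prior 4.43). Tests used limma 3.58.1 in R 4.3.3 with Benjamini-Hochberg adjustment over 6031 genes at a threshold of 0.05, with no covariate; figures used matplotlib 3.10.9 in Python 3.11.15. Intensities were not used here, so precision depends on the number of arrays. No array has exchanged dyes.

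The members and the 21 gene lists were chosen with earlier results of these data known. Named genes are YOX1, YHP1 and MCM1; the 12 largest increases and 12 largest decreases among called genes measured on all 10 arrays without overlap; and of each list the 4 largest members plus every called member of a list with 5 or fewer calls. Other members are given to complete a list's account. One member's own values are not reported here. Genes outside this rule were chosen after their values were seen. Lists are described by counts and medians, with no test. Both tests were tested on simulated data, where the test between the windows recovered most changed genes and the test between cycles recovered none. Alternatives covered array sets, blocks, centring, scaling, missing values, the estimate of spread, windows, thresholds and the leaving out of time points and arrays.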

Additional observations from a re-analysis of the deposited data

Results flagged for a closer look

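Within a window, 7 of the 186 groups of arrays checked among the named genes held an array far from the others by Dixon's criterion, where chance gives about 1 in 20. Of these, 3 concern the 95 min array of set 1. STE3 stood at 1.67 there, against -0.20 to 0.29 on the other arrays of 90-100 min. RPP2A stood at -2.26, against -1.87 to -1.66, so its earlier mean is lower and its increase larger by this array. RPL36A stood at 0.26, against -0.33 to -0.28, on 4 arrays. WHI5 stood at 1.62 on the 95 min array of set 2, against 0.46 to 0.75, and HXT4 at 1.41 on the 90 min array of set 2, against 0.80 to 1.01. RPL4B was off in both windows, at 0.83 on the 120 min array of set 1, against 0.55 to 0.58, and at 0.0351 on the 90 min array of set 2, against 0.30 to 0.39. The cause was not tested in any of these.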

How the results depend on the processing

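The counts of 273 higher and 235 lower genes moved strongly with the settings. They were 32 and 61 in array set 1 alone, 470 and 454 with time point as a random block, 638 and 529 with array set as a fixed block, 89 and 149 with 110 min added to the later window, and 567 and 486 at an adjusted p under 0.1. They were 0 and 0 with the spread pooled over 5 windows (1091 genes at an unadjusted p under 0.05, smallest adjusted p 0.0536), without 90 min and with 110 min added (1020, 0.0532), at an adjusted p under 0.01 and in the test against a fold change of 1.5. Leaving out 1 time point or array gave 2 to 450 higher and 1 to 303 lower. With both arrays of 90, 95, 100, 115 or 120 min left out, higher genes numbered 109, 88, 233, 26 and 2, and lower genes 123, 82, 233, 10 and 1. With the array of set 1 alone left out at these times, higher genes numbered 44, 6, 12, 450 and 164, and lower genes 63, 2, 13, 303 and 172. For set 2 the numbers were 10, 26, 123, 6 and 68 higher, and 8, 37, 126, 4 and 71 lower. Leaving out 1 array puts that time point on the other set's scale by construction. With array set as a fixed block, an alternative chosen after seeing the data, leaving out 1 array gave 348 to 601 higher and 325 to 508 lower. Separated genes numbered 1129 and 977 in set 1 alone and 1533 and 1148 in set 2 alone, where fewer arrays have to separate, 65 and 104 with 110 min added, and 85 and 127 without 90 min and with 110 min; leave-outs gave 183 to 477 and 210 to 420. Set 2 alone, title date as a block, no centring, equal spread, limits kept and other filters kept the called counts within 1.5 times. The count between cycles was also 0 under each alternative run. This says nothing on stability: the main form of the test recovered no changed gene on simulated data, and the alternatives were not simulated.

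List counts moved alike. Without 115 min 5 CLB2 cluster, 2 SBF and 0 MBF, histone or SIC1 members passed, and without 120 min 1 of the CLB2 cluster and 0 of the others did. List medians were not computed in the fits with blocks, with the pooled spread or at other thresholds. Where computed, medians kept their sign for the CLB2 (0.53 to 0.83), MBF (-0.65 to -0.41) and SBF (-0.54 to -0.41) lists. The same held for the histone (-0.70 to -0.46), SIC1 (-0.88 to -0.52), stress (-0.55 to -0.31) and ribosome biogenesis (0.15 to 0.46) lists. MF(ALPHA)2, uncalled at -0.03, was 0.00486 with a random block, 0.0667 at equal spread, 0.00635 with 110 min added and -0.187 to 0.126 in leave-outs, and YOX1 was -0.0940 at equal spread. No paired analysis was possible because the labels give no replicate numbers that link a time point of one window to one of the other; array set, which spans both windows, was the block in the fit with 638 and 529 calls.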

Other observations

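Genes in this section were chosen after their values were seen. HAC1, which encodes the transcription factor of the unfolded protein response, had the largest difference of all genes tested, 1.96 ± 0.25 (SE, limma adjusted p = 0.0150), but its arrays overlapped. It gave -3.45 and -2.13 at 115 and 120 min in set 1 and -0.56 and -0.28 in set 2, against -4.77, -3.47 and -2.30 as lowest, median and highest at 90-100 min. The overlap lies between the sets, since within set 1 the 115 min array stood above the 3 arrays of 90-100 min, at -4.77 to -3.85. HAC1 also swung widely between neighbouring samples. In set 2 it gave -1.25 at 85 min, -3.10 at 90 min, -1.01 at 105 min and -3.41 at 110 min. In set 1 it gave -3.51 at 105 min and -4.15 at 110 min. The cause of these swings was not tested. UTH1 gave -1.96, -0.91, 0.01 and 0.06 against -2.74, -2.26 and -1.54. The open reading frames YML040W, YMR051C and YAR010C gave -3.56, -3.53 and -3.38 on the 115 min array of set 1 and -1.23, -1.24 and -1.61 on the 120 min array, with earlier medians of -3.04, -3.02 and -3.21; they rose by 1.49 to 1.52.

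Of 17 HXT genes tested 7 fell and none rose, against 3.90% and 4.53% of all genes. The 7 include HXT6 and HXT7, near-identical copies that 1 probe may read together, so they are not 7 separate results. HXT2, a high-affinity transporter, changed by -1.38, HXT8 by -0.76 and HXT5 by -0.69, and HXT1 did not pass at -0.15. PMA1, the plasma membrane proton pump, rose by 0.85. The glycogen branching and debranching enzymes GLC3 and GDB1 changed by -0.78 and -0.61. Among regulators, SFG1 rose by 1.09 and PHO4, the activator of phosphate genes, by 0.83, while MSA2, a partner of SBF and MBF, fell by 0.97. All 7 genes of the subtelomeric YRF1 helicase family had differences between -0.64 and -0.48, and 4 fell; the copies are near-identical, so their probes may read one another.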
